A study of Mus musculus with 12 samples.

Results

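Contacts of ESRP1 with the RNAs of 7 genes of the epidermal differentiation complex on mouse chromosome 3 were described: Hrnr, Flg2, Flg, Rptn, Tchh, Tchhl1 and Ivl. The genes were chosen by name, and a site belonged to a gene when it lay inside the gene's GRCm38 span on the gene's own strand. They are 7 of 17491 protein-coding genes whose strand was known, and they held 282 sites over 3 lists. The annotation had 21896 protein-coding genes. Shares, ranks and site densities over all genes refer below to the 17491, and the others were left out. Joined over the lists, these sites made 79 of 45738 regions, where a region joins sites on the same strand that lie within 10 nt of each other.

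ESRP1 is an epithelial RNA-binding protein best known as a regulator of alternative splicing. Its RNA contacts were mapped by eCLIP, in which ultraviolet light joins protein to RNA and the stops of reverse transcription mark the joined nucleotide. Epidermal sheets came from back skin of Esrp1FLAG/FLAG pups on postnatal day 1, so both alleles of the endogenous gene carried the tag in every animal. The labels name 6 FLAG immunoprecipitates and 6 inputs, both taken from the membrane between 75 and 140 kDa, and no group without the tag is among them. Each list of sites joined 2 immunoprecipitates with input: replicates 1 and 2 in list 1, 3 and 4 in list 2, and 5 and 6 in list 3. Values are therefore given per list, without a spread between libraries.

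The outer layer of the epidermis is made of dead keratinocytes wrapped in a cornified envelope, a sheet of proteins that transglutaminases join to each other. Fused-type S100 proteins are made late in this programme: each has a calcium-binding S100 part at its start, followed by a long run of repeats that is mostly encoded by a single large exon. Hrnr, Flg2, Flg, Rptn, Tchh and Tchhl1 are of this type. Ivl encodes involucrin, an early envelope protein with repeats of its own but no S100 part, so it belongs to the set as an envelope gene only.

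Lists 1, 2 and 3 held 73602, 40014 and 53864 sites in all, of which the 7 genes held 129, 30 and 123. In list 1 that is 0.175% of the sites (exact 95% interval 0.146% to 0.208%, counting error only). The share was 0.0750% in list 2 (interval 0.0506% to 0.107%), and list 3 had 0.228% (interval 0.190% to 0.272%). The set thus had its lowest share in list 2. Neighbouring sites and sites in copies of a repeat are not independent, so these intervals are too narrow. The difference between the lists was not tested. As a check of the tissue, sites on either strand were found in the spans of 4 of 5 basal and 3 of 4 suprabasal keratinocyte markers, with none in Krt14 and Krt1. The basal markers held 83, 77 and 78 sites in lists 1, 2 and 3, and the suprabasal ones 78, 31 and 71. All 4 markers of the inner root sheath of hair follicles had sites (41, 15 and 31 in lists 1, 2 and 3). Markers of melanocytes (2 of 4 genes, at most 4 sites in a list), fibroblasts (1 of 4, at most 1 site) and immune cells (0 of 3) had few. The part of other cell types in the results was not tested, and in bulk tissue fewer cells of a type and less RNA per cell cannot be told apart.

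At least 1 site was found in 5 of the 7 genes in list 1, 4 in list 2 and 6 in list 3, against 29.2%, 26.9% and 23.9% of all protein-coding genes. Over the lists together 6 of 7 had a site, and the background was 34.1%. A region with sites of every list was found in 4 genes, Hrnr, Flg2, Rptn and Tchh, while 16.5% of all genes had one. The 282 sites were counted on the gene's own strand by rule. Of the sites on either strand of these spans, they made up 100% (exact 95% interval 98.7% to 100%). The other strand of these spans held 0, a count whose limit of 3 sites would be 1.06%. That is a one-sided limit, so lower than the 2-sided interval allows. Sites of a region are not independent, so both limits are descriptive. Over the spans of all protein-coding genes whose strand was known, 89.4% of the sites were on the gene's own strand.

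Sites were very unequal among the genes, as the plot of sites per kb shows. Hrnr held 79, 18 and 53 sites in lists 1, 2 and 3, or 5.71, 1.30 and 3.83 per kb of its span. Flg2 held 36, 10 and 51 sites, or 1.49, 0.415 and 2.12 per kb. These 2 genes therefore made up 115 of 129, 28 of 30 and 104 of 123 of the set's sites. Ivl held 8, 0 and 6 sites, Rptn 3, 1 and 7, Tchh 3, 1 and 4, and Tchhl1 0, 0 and 2. Flg held no site in any list. Summed over the lists, the density was 10.9 sites per kb in Hrnr, 4.84 in Ivl, 4.02 in Flg2, 1.92 in Rptn, 1.19 in Tchh and 0.620 in Tchhl1. The median over all genes with a site was 0.264 and the 95th percentile 3.59, so Hrnr, Ivl and Flg2 lay above that percentile. For Hrnr this depends on counting every copy of its repeated sites, described below. It had 150 sites so counted, and 43 with repeated positions counted once per list. The sites of Ivl lay in 1 stretch of 14 nt, in a span of 2892 nt, where the median over all protein-coding genes was 16908 nt. With copies counted, Hrnr stood above Flg2 by sites per kb in each list. Ivl stood above Flg2 in list 1, below it in list 3, and had no site in list 2. No measure of RNA abundance was used here, and its part in these counts was not tested.

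**Figure D1:**
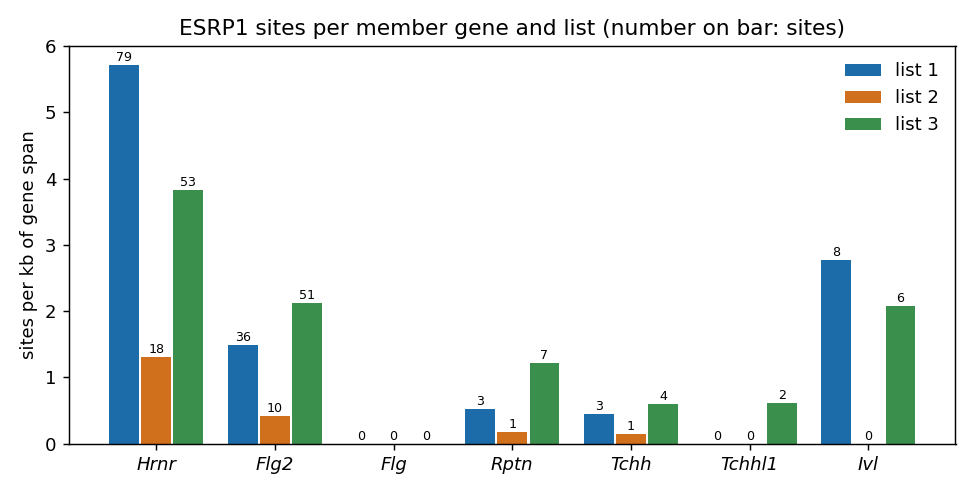
Sites per kb of gene span for the 7 genes (bars, 1 per list, with the number of sites printed above). Hrnr, with every copy of its repeated sites counted, reaches 5.71 sites per kb in list 1. It is highest in lists 1, 2 and 3 among the genes, and Flg is at 0 in each.

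The deposited scores of these sites were high for their lists. The score has no stated unit, so it was ranked within each list. The median site of the set stood at the 91.7th percentile of list 1, the 84.0th of list 2 and the 86.6th of list 3. Above the list's own median were 94.6%, 100% and 87.0% of the sites. The median sites of Hrnr stood at percentiles 92.7, 89.3 and 96.0, and those of Flg2 at 90.8, 81.5 and 81.8. Without Hrnr the median over all lists fell from percentile 90.1 to 82.0.

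Hrnr encodes hornerin, a very long repetitive protein of the upper epidermis. Its span of 13824 nt runs from chr3:93319749-93333572 on the plus strand. Among the 17491 protein-coding genes whose strand was known it ranked 4 by sites, 42 by sites per kb and 1 by regions found in every list, with 15. These ranks count every copy of the repeated Hrnr sites described below separately. Where its sites lay was highly regular. In each list the separation with most pairs of sites, counting separations of 50 nt or more, was 1044 nt, with 49 pairs in list 1, 13 in list 2 and 31 in list 3. Together these were 93 pairs, whereas the 1406 different separations in the gene had a median of 2 pairs. The next was 2088 nt, with 62 pairs, which is the same step taken again. Separations of 2601, 3645 and 3132 nt, at 49, 43 and 41 pairs, followed, then 1557 and 1043 nt with 40 each. The last is 1 nt short of the leading step.

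A partner exactly 1044 nt away in the same list was found for 66 of 79 sites in list 1 (83.5%, exact 95% interval 73.5 to 90.9). In list 2 it was 17 of 18 (94.4%, 72.7 to 99.9) and in list 3 it was 42 of 53 (79.2%, 65.9 to 89.2). The shares overlap between the lists, and together 125 of 150 sites had such a partner (83.3%, 76.4 to 88.9). Sites in copies of a repeat are not independent, so these intervals are descriptive. The step is a whole number of codons, 348. Whether it equals the repeat of the hornerin protein was not tested here, since no protein sequence was used.

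**Figure D2:**
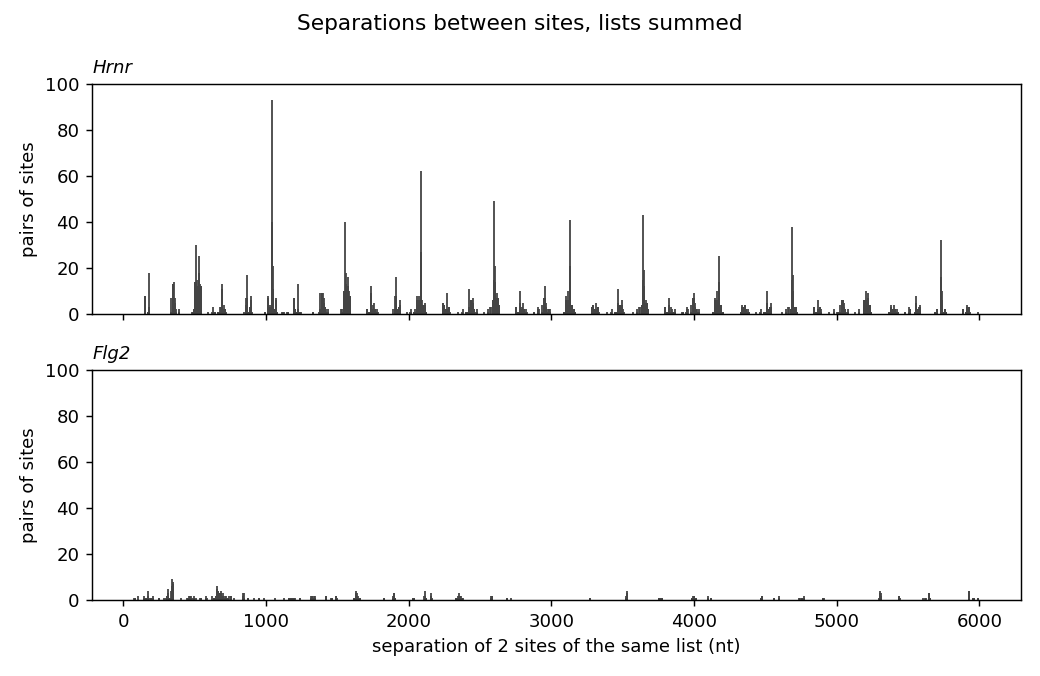
Number of pairs of sites of the same list (vertical axis, lists summed) at each separation in nt (horizontal axis, from 50 nt) in Hrnr and Flg2. Hrnr shows its highest peak of 93 pairs at 1044 nt and further peaks at 2088 nt and beyond, and no separation in Flg2 exceeds 9 pairs.

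The repeated sites formed an array of 7644 nt, from 4113 to 11756 nt after the start of the gene, or 55.3% of the span (chr3:93323862-93331505). Within it 2 elements recurred in every list, both read from list 1 after its values were seen. One was a single nucleotide, found at 8 copies, and the other a block of up to 4 neighbouring nucleotides, found at 7 copies. The 8 single sites and 7 blocks are the 15 regions with sites of every list. Copies of the single site lay 4644, 5688, 6732, 7776, 8820, 9333, 10377 and 11421 nt after the gene's start. They were 1044 nt apart in 6 of 7 gaps, and 513 nt apart in the remaining one, between copies 5 and 6. Blocks began at 4113, 5157, 6201, 7245, 8289, 9846 and 10890 nt, with 5 of 6 gaps of 1044 nt and 1 of 1557 nt. The short step therefore added a single site without a block. Each block preceded its single site by 531 nt, and the short step of 513 nt is also a whole number of codons, 171.

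Unit positions were chosen as those with a list 1 site in 5 or more copies, so list 1 holds all of them by rule. Blocks were 4 adjacent list 1 sites, and copies of the single site were list 1 sites with sites 28 and 27 nt upstream. In list 1 the single site and this pair therefore stood in 8 of 8 copies by definition. The 4 nucleotides of the block, 531 to 528 nt upstream of the single site, were each present in 7 copies, together by definition. A further site 178 nt upstream was present in 8 of 8 copies. A site 335 nt downstream was present in 5 copies, 4 to 8. After copies 4, 6 and 7 it lay 178 nt upstream of the next block, the same distance as between the other lone site and the single site. After copy 5 it is also the upstream lone site of copy 6. List 3 had the same block in 7 of 7 copies, the site at 178 nt in 7 of 8 copies, the single site in 8 and the downstream site in 2 (copy 5 among them), but the pair at 28 and 27 nt in 0. List 2, the shortest list, had the first nucleotide of the block in 7 copies, the second in 3 and the single site in 8. Such unit positions took 64 of 79 Hrnr sites in list 1 (81.0%), all 18 in list 2 and 44 of 53 in list 3 (83.0%). Of the 9 positions chosen from list 1, 3 had a site in list 2 and 7 in list 3. With unit positions counted once per list, the 150 sites of Hrnr became 43. With positions taken modulo 1044 nt, the 15 regions in every list fell onto 3 places, since the short step moves the later copies, and by element they are 2, the single site and the block.

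**Figure D3:**
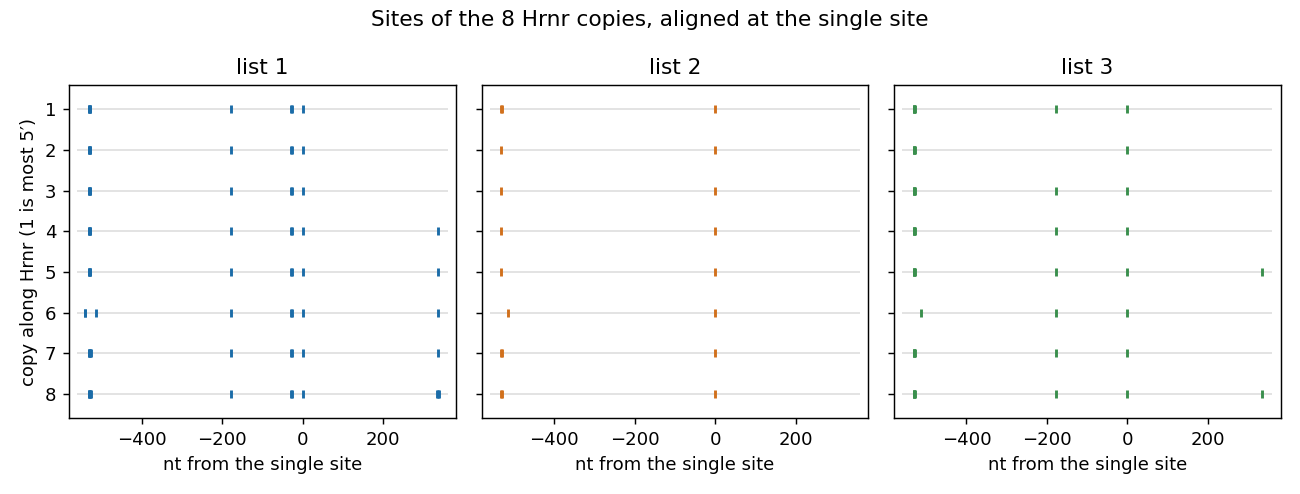
Sites (ticks) in the 8 copies of the Hrnr unit (rows, from 5′ to 3′), aligned at the single site, with nt from it on the horizontal axis, 1 panel per list. The single site stands in 8 of 8 copies in each list, in list 1 by definition, and the block, about 530 nt upstream, in 7. The mark 513 nt upstream in row 6 is the single site of row 5.

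The scores of the single site were nearly equal over its copies, and those of other elements were less so. At the single site they ran from 64.5 to 66.8 over the 8 copies in list 1, from 30.1 to 32.7 in list 2 and from 61.8 to 63.8 in list 3. Copy 6, the one after the short step, was the highest of the 8 in each list, with 66.8, 32.7 and 63.8. The lone sites had more spread in list 1, from 38.6 to 73.5 at the upstream one and from 43.9 to 75.4 at the downstream one. So had the block. Its highest score per copy ran from 126.7 to 136.3 in list 1, from 49.6 to 91.2 in list 2 and from 137.9 to 170.5 in list 3. In list 2 the block copies 1, 6 and 7 stood at 91.2, 87.9 and 89.3, and copies 2 to 5 between 49.6 and 59.8. The former 3 copies are those in which list 2 had a second nucleotide of the block. Sites 1044 nt apart differed by a median score of 2.19, 1.40 and 2.59 in lists 1, 2 and 3, while other pairs of Hrnr sites differed by 42.7, 28.3 and 60.9. None of the pairs at 1044 nt had exactly equal scores (0 of 49, 0 of 13 and 0 of 31). Nor had any other pair of Hrnr sites at least 50 nt apart (0 of 2941, 0 of 137 and 0 of 1299). The sources used here do not give how reads matching several copies were placed. Contacts at many copies and reads of 1 copy placed at several cannot be told apart.

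**Figure D4:**
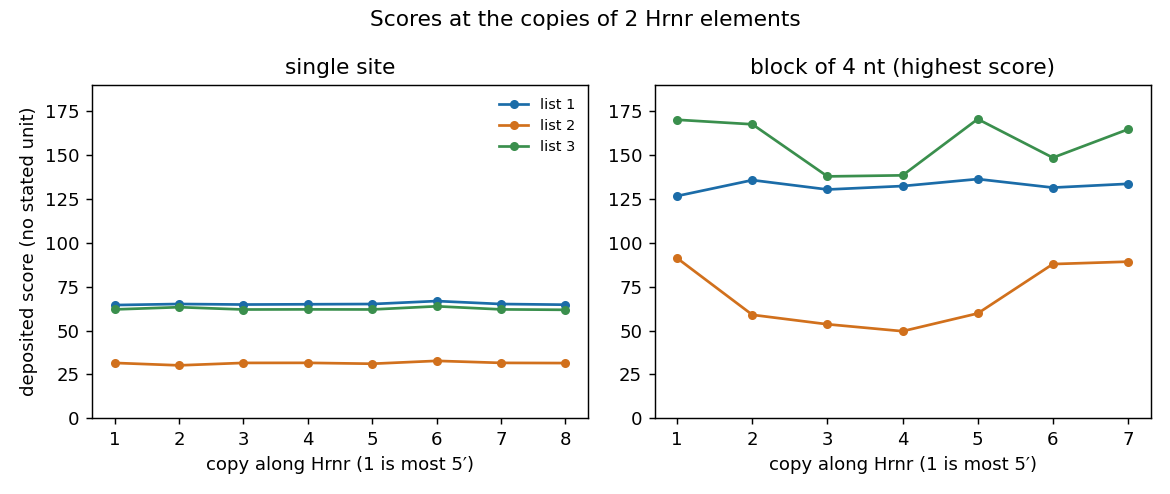
Deposited score (vertical axis, no stated unit) at each copy along Hrnr (horizontal axis, from 5′ to 3′) for the single site and for the highest-scoring nucleotide of the block, 1 line per list. Single-site scores stay within 64.5 to 66.8 in list 1, and block scores in list 2 run from 49.6 to 91.2.

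Outside the array Hrnr had few sites, and they included its highest scores. List 1 had 11 sites downstream of the array and 1 upstream, list 3 had 7 and 2, and list 2 had 0. The highest score of the gene, 266.8 in list 1, lay at chr3:93332920-93332924, 648 nt before the 3′ end, where list 3 had its own highest of 175.9. These scores stood at percentiles 99.2 and 98.5 of their lists. One more site of list 1 nearby, at 93332907, scored 237.8. Neither place has a partner 1044 nt away, and list 2 had no site there.

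Flg2 encodes filaggrin-2, a close relative of filaggrin (chr3:93197273-93221377, plus strand, 24105 nt). Its sites showed no such order. The leading separation was 345 nt with 9 pairs, and 18 of 97 sites had a partner there (18.6%), below the median of 25.6% over the 1882 genes with 15 or more sites. Flg2 ranked 1488 among these, and Hrnr shared the highest place with Lrrc4c. It had 6 regions with sites of every list, and they fell into 3 parts of the gene.

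In the first 7000 nt of Flg2 there were 16, 2 and 15 sites, and 2 regions were found in every list. At 93202557 the scores were 63.3, 26.2 and 58.0, and at 93203255-93203257 the highest were 91.0, 24.0 and 97.2. In the last 1000 nt there were 16, 6 and 14 sites with 3 such regions. They lay 778, 436 and 124 nt before the 3′ end. The middle one, chr3:93220937-93220941, had the highest scores of the gene, 194.1, 109.3 and 190.9, at percentiles 98.6, 97.0 and 98.8. The region at 93220591-93220599 reached 109.9, 34.5 and 116.3, and the one at 93221249-93221253 reached 119.0, 44.0 and 87.5. Scores near the 3′ end thus exceeded those of the other parts in list 1, with medians of 103.4 against 55.8 in the first part. In list 2 the medians were 59.9 and 25.1, and in list 3 they were 95.02 and 49.2.

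The long stretch between the first and last parts of Flg2 behaved differently from list to list. It held 4 sites in list 1, 2 in list 2 and 22 in list 3, with 1 region in every list at 93211293-93211304 (30.2, 24.4 and 54.1). Of these sites 4 of 4 in list 1, 0 of 2 in list 2 and 10 of 22 in list 3 had a neighbour within 10 nt with exactly the same score. Over all sites of the lists, with or without a neighbour, that held for 2.02%, 3.54% and 4.10%. In the first part of Flg2 it held for 0 of 16, 0 of 2 and 2 of 15 sites. The last part had 0 of 16, 2 of 6 and 0 of 14. The part of repeated sequence in this was not tested.

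Flg encodes profilaggrin, the precursor of filaggrin, which packs keratin filaments and is broken down to the moisturising amino acids of the skin. No site of any list lay in its span (chr3:93273546-93293689, plus strand, 20144 nt), on either strand. The nearest sites on the plus strand were 39448 nt upstream, at 93234098 in lists 1 and 2, and 29461 nt downstream, at 93323150 in Hrnr in list 3. Of the 7920 genes with a span at least as long, 48.2% had a site. A gene without a listed site cannot be told apart from one whose reads were left out or were matched by input, since the lists carry no read counts.

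Rptn, Tchh and Tchhl1 had few sites. Rptn encodes repetin, an envelope protein of the upper epidermis and hair follicle (chr3:93393699-93399442, plus). Its region in every list was chr3:93398914-93398924, 518 nt before the 3′ end, with highest scores of 28.1, 30.9 and 18.5, at percentiles 73.7, 79.0 and 51.2. List 3 alone had a second region, 328 nt before the end, at up to 10.5. Tchh encodes trichohyalin, which hardens the inner root sheath of the hair follicle (chr3:93442330-93449077, plus). Its region in every list, chr3:93448145-93448149, scored higher than that of Rptn, with 106.2, 57.8 and 91.2 at percentiles 95.2, 90.9 and 93.6. Each of these 2 regions held 1 nucleotide called in every list. Tchhl1, which encodes trichohyalin-like 1 (chr3:93468754-93471980, plus), had 2 sites in list 3, with scores of 3.96 and 8.58, both below the list's median of 17.7.

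Ivl is the sole gene of the set on the minus strand (chr3:92570899-92573790, 2892 nt). All 14 of its sites lay in 1 stretch of 14 nt, chr3:92571006-92571019, 107 nt before the 3′ end. List 1 had 8 sites there with a highest score of 51.7, and list 3 had 6 with a highest of 86.9. All 6 sites of list 3 were on nucleotides also called in list 1. List 2 had none, so Ivl had no region in every list, and without list 2 it had 1.

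**Figure D5:**
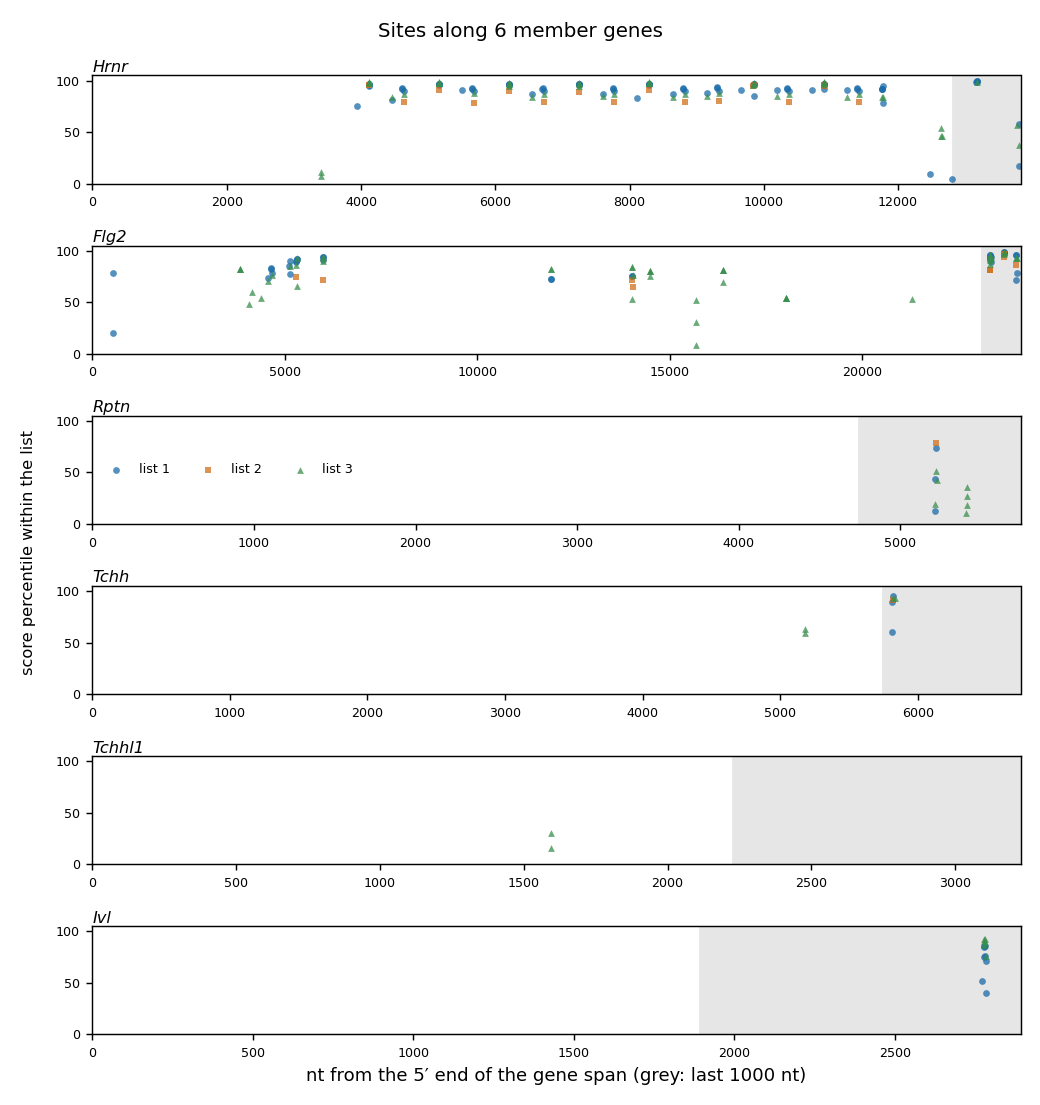
Position of each site (horizontal axis, nt from the 5′ end of the gene span) against its score percentile within its list (vertical axis) for the 6 genes with sites; colour and shape give the list and grey marks the last 1000 nt. Hrnr shows evenly spaced columns of sites, and in Rptn, Tchh and Ivl most sites stand in the grey part.

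Most sites of Rptn, Tchh and Ivl lay near the 3′ end, and those of Hrnr did not. Of the 282 sites 76 (26.95%) lay in the last 1000 nt of a span. In Hrnr it was 9 of 150 (6%), and in the other genes together 67 of 132 (50.8%). All 11 sites of Rptn, all 14 of Ivl, 6 of 8 in Tchh and 36 of 97 in Flg2 (37.1%) lay there, and 0 of 2 in Tchhl1. The same share over all sites of the lists was not counted. In 5 of 7 genes the last 1000 nt held sites of at least 2 lists, while 8.82% of all protein-coding genes had that. Only 34.1% of all protein-coding genes had a site anywhere in the span. Ivl (2892 nt), Rptn (5744 nt) and Tchh (6748 nt) are short, so a window of 1000 nt covers a large part of their spans, most of all in Ivl. Windows of 200 and of 500 nt each left 3 genes. Without list 1 or without list 3 the count was also 3, since Hrnr and Ivl have no such site in list 2. Exons were not annotated in the table used, so untranslated and coding parts were not separated.

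Sites of list 2 in these genes were nearly all on nucleotides that the other lists also called. Of the 30 sites of list 2, 29 (96.7%) were also called in list 1 and 30 (100%) in list 3, against 53.4% and 42.1% over all sites of list 2. Of the 123 sites of list 3, 83 (67.5%) were called in list 1, and 54.6% of all sites. The last share was highest in Hrnr, with 47 of 53 (88.7%), and Ivl, with 6 of 6. It was 27 of 51 (52.9%) in Flg2, 2 of 7 in Rptn, 1 of 4 in Tchh and 0 of 2 in Tchhl1. Without Hrnr it was 36 of 70 (51.4%), below that of all sites. For list 2 both were high, with 18 of 18 Hrnr sites in either other list, and 9 and 10 of 10 for Flg2. The sites of Hrnr copies are not independent here either, and the set's sites also had higher scores than most, whose part in this was not tested.

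Few genes resembled Hrnr in spacing. Among the 1882 genes with 15 or more sites, 3.72% had 50% or more of their sites partnered at their own leading separation, and Hrnr was at 83.3%. The nearest were Lrrc4c, a neuronal adhesion protein gene (83.3%, 356 nt), Emg1, a ribosome assembly factor gene (77.8%, 6944 nt), Map7d2 (77.8%, 34527 nt), Hspe1, a mitochondrial chaperone gene (75%, 807 nt), and Pds5b, a cohesin regulator gene (70%, 580 nt). In each of these 5 the longest chain of sites at the leading separation had 2 sites, that is, a pair of clusters. In Hrnr it had 8, running through 5 blocks and, past the short step, 3 single sites, while either element alone made a chain of 5. These genes had between 7 and 20 such pairs, against 93 in Hrnr.

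Other genes of the cornified envelope and its neighbourhood were counted from a list of 57, of which 46 were matched and had a known strand. A site was found in 26, 27 and 25 of them in lists 1, 2 and 3, and a region in every list in 24 (52.2%, where the background was 16.5%). The late cornified envelope (Lce) genes, short neighbours of the fused S100 genes, all had a site (20 of 20), and 18 had a region in every list. Lce1m was counted through list 2 alone, with 0, 17 and 0 sites in lists 1, 2 and 3. Of the small proline-rich (Sprr) genes, which encode bridging proteins of the envelope, 4 of 14 had a site and 3 a region in every list. Of the S100a genes, which encode small free S100 proteins, 2 of 7 had both. Over the lists together 27 of the 46 genes had a site. Crnn and Lor, also in the list, had none on either strand. The most regions in every list was 2, in 5 genes. The 4 of them with most sites were Lce1k with 6, 3 and 5 sites, Lce1c with 5, 3 and 5, Lce1d with 8, 2 and 3, and S100a6, a calcium-binding protein gene, with 5, 4 and 4, and the fifth was Lce1b with 4, 2 and 3. Lce and Sprr genes have near-identical copies, so their counts are uncertain. The median span was 1697 nt in the list of other envelope genes, 6748 nt in the 7 genes and 16908 nt over all protein-coding genes.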

How the data were processed

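The labels list 12 libraries (6 FLAG immunoprecipitates, 6 inputs). The authors deposited 3 lists of sites, each called on 2 replicates with input, per the file headers. A line is 1 nt wide, with a strand and a score whose unit the authors did not state per the file headers. The lists hold no read counts, so depth is unknown and no spread between replicates can be given. Per the submitters' processing notes, HOMER, HISAT2 2.1.0 and cutadapt 1.16 were used, in roles the notes omit. The sources used here give neither the site caller's settings nor what was done with reads that align to several places.

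Sites were assigned to RefSeq gene spans (GRCm38.p6), with strand from the RefSeq promoter table. Sites at most 10 nt apart were joined into regions. Python 3.11.15, pandas 2.3.3 and scipy 1.17.1 were used, and the counting was tested on simulated data. Intervals are exact (Clopper-Pearson, 95%) and treat sites as independent, which neighbouring sites are not. No test was made. Unit positions of Hrnr are those with a list 1 site in 5 or more copies. All 7 genes were named, with the 4 other envelope genes with most regions in every list (ties by sites). The 5 genes most like Hrnr in spacing were named too. Lce1b, also tied in regions, Lce1m, with sites in list 2 alone, and Crnn and Lor, without a site, were added after their values were seen. The genes and lists were chosen with earlier results of these data known. No site of the 7 genes lay in a promoter window. A planned comparison with the repeats of the RefSeq proteins was not run, because no protein sequence was used here.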

Additional observations from a re-analysis of the deposited data

How the results depend on the processing

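The count of 4 genes with a region in every list was 5 without list 2 and 4 under each other setting. The leading separation of Hrnr was 1044 nt under each setting tried, and the share of its sites with a partner ran from 81.8% to 88.0%. Regions of Hrnr in every list ranged from 15 to 26 with 1 list left out, the 26 without list 2, and fell onto 3 places when positions were taken modulo 1044 nt. Without list 2, regions in the lists left were 12 in Flg2 and 1 in Ivl. Density over the 7 genes was 1.23 sites per kb as the mean of the lists, 0.391 in list 2 alone and 0.761 with the unit counted once. The median percentile of score was 90.1, and 82.0 without Hrnr. Genes with sites in the last 1000 nt in at least 2 lists numbered 5, and 3 with windows of 200 or 500 nt. That count ranged from 3 to 5 with 1 list left out. Other envelope genes with a region in every list ranged from 22 to 25. The settings for the last 3 results, for regions of Flg2, Rptn, Tchh and Ivl, and the leading separation among the 50% of sites with the highest score, were chosen after the data were seen. The cause of these changes was not tested, apart from fewer lists or positions being counted. No paired analysis was possible because each list joins 2 replicates and no library has values of its own. The main limits are list 2, which is the shortest, and the unknown placing of reads among copies.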
